A study of Rattus norvegicus with 26 samples.

Results

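Rat spinal cord 4 weeks after transplantation of hUC-MSCs, mesenchymal stem cells from human umbilical cord, was compared with the cord as it stood just before transplantation. These 2 groups hold 7 of the 26 libraries of the series, 4 of +MSC-4w and 3 of sub-SCI, and the genes compared are the 17990 that passed an expression filter, of 32883 in the table. All animals were adult female Sprague-Dawley rats, labelled postnatal day 70 in every group. Their cord was compressed at T10 with an aneurysm clip of 60 g for 1 min. The sub-SCI group was taken 7 days after injury, in the subacute phase, with neither cells nor vehicle. The +MSC-4w group received hUC-MSCs into the lumbar intrathecal space at day 7 and was taken 4 weeks post-transplantation (4 wpt), at day 35. The +PBS-4w group (4 libraries) received PBS on the same days, and the Intact group (4 libraries) had no injury. According to the methods, rats were given cyclosporin A daily to suppress rejection, and which groups this covered is not stated. By the same methods each library was made from poly(A) RNA of a 5 mm segment around the lesion epicenter. Because +MSC-4w and sub-SCI differ by 28 days as well as by the cells, the change between them cannot be told apart into time and transplantation from these 2 groups alone. The +PBS-4w libraries are therefore given beside it, and +MSC-4w against +PBS-4w is the test of whether the changes since sub-SCI differed.

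In the first week after contusion or compression, neurons and oligodendrocytes at the epicenter are lost, blood-borne monocytes and resident microglia clear debris, and glia, vascular cells and fibroblasts divide. Over the following weeks division subsides, macrophages become loaded with lipid from myelin, a scar of astrocytes around a core of fibroblasts and matrix matures, and Schwann cells from the nerve roots may enter. In bulk tissue fewer cells of a type and less RNA per cell cannot be told apart, so every level below is that of the whole segment. The labels do not say whether each library came from a separate animal, while the methods speak of biological replicates. The p values rest on the spread within groups over all 26 libraries, not on that of the 7 compared alone.

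The 7 libraries held 23353052 to 43468509 counts. Levels are given as CPM, a gene's count relative to its library's TMM-scaled total, always in the order of the replicate numbers. Libraries labelled replicate 1 stood apart in the series, since in all 8 groups that library had the top value of 337 genes and the bottom value of 81, of 17990. Among the sub-SCI libraries replicate 3 stood apart, with the lowest neuronal and the highest scar levels. Counts are therefore also given without these libraries where they move by more than 1.5 times. The neuron, myelin and astrocyte markers of spinal cord were present in all 7 libraries. Red blood cell markers (5 genes) summed to 664.9 to 805.1 CPM in sub-SCI and 151.5 to 977.7 CPM in +MSC-4w, and skeletal muscle markers (6 genes) to 12.03 to 21.8 and 11.87 to 50.16 CPM.

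A gene was called a DEG when its absolute log2 fold change was above 1 and its adjusted p under 0.01 (edgeR quasi-likelihood test, Benjamini-Hochberg). By this rule 1836 genes were higher in +MSC-4w than in sub-SCI (10.2% of those tested) and 1097 were lower (6.1%). Their median log2 fold changes were 1.68 and −1.53, against 0.03 over all genes, and 555 of the higher and 332 of the lower DEGs exceeded an absolute log2 fold change of 2. In 1817 of the 1836 higher and 1085 of the 1097 lower DEGs the 4 +MSC-4w libraries did not overlap the 3 sub-SCI libraries. Such separation was found upward in 26.15% and downward in 24.09% of all genes tested. Without sub-SCI replicate 3 the counts were 1107 and 775, and without the 8 libraries labelled replicate 1 they were 1615 and 1126. Over the same interval +PBS-4w differed from the same sub-SCI libraries in 770 genes higher (4.28%) and 555 lower (3.09%), which became 354 and 361 without sub-SCI replicate 3 and 51 and 184 in edgeR on these 2 groups alone. The direct comparison of +MSC-4w with +PBS-4w at day 35 called 89 genes higher (0.495%) and 0 lower (0%), with 2020 and 2028 at an unadjusted p under 0.05. DESeq2 on all libraries called 295 and 13 in that comparison, while the 89 became 3 without +MSC-4w replicate 1 or +PBS-4w replicate 2. Against Intact, +MSC-4w was higher in 1305 genes (7.25%) and lower in 275 (1.53%), the latter 428 without the 8 libraries labelled replicate 1 and 127 to 424 with 1 library left out.

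**Figure D1:**
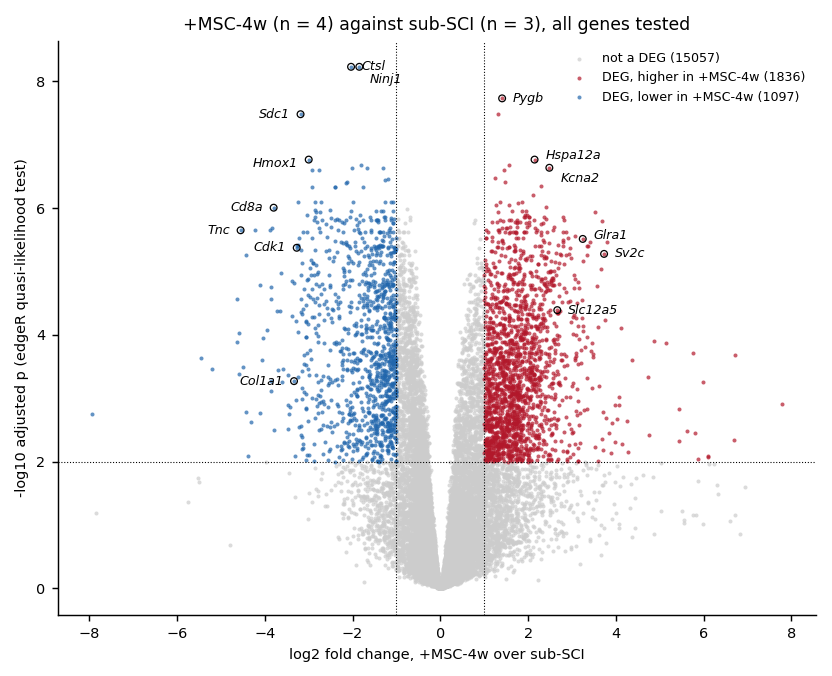
Log2 fold change of +MSC-4w over sub-SCI (x axis) against −log10 of the edgeR adjusted p (y axis) for the 17990 genes tested, with dotted lines at the DEG thresholds and named genes ringed. Of the 1836 higher DEGs (red) 555 and of the 1097 lower DEGs (blue) 332 lie beyond an absolute log2 fold change of 2, and the smallest adjusted p belong to lower genes, Ninj1 and Ctsl.

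The 8 lower DEGs with the smallest p were Ninj1, Ctsl, Sdc1, Hmox1, Tmem86a, Card19, Ckap4 and Kpna2. Ninj1, whose product drives plasma membrane rupture in dying cells, was measured at 178, 203 and 186 CPM in sub-SCI and 44.6, 54.9, 53.3 and 57.5 CPM in +MSC-4w. Its log2 fold change was −1.85 ± 0.12 (SE; edgeR adjusted p = 5.89e-09), and its +PBS-4w level was 68.9 ± 7.44 CPM (SD, n = 4) against 22.3 ± 2.1 CPM in Intact (SD, n = 4). Sub-SCI was thus highest and Intact lowest, and the 2 groups of day 35 did not differ beyond the threshold (edgeR adjusted p = 0.0540). Sdc1, a heparan sulfate proteoglycan of the cell surface, went from 78.9, 111 and 129.6 CPM to 8.71, 13.7, 12.7 and 11.6 CPM, a log2 fold change of −3.19 ± 0.24 (edgeR adjusted p = 3.29e-08). Tmem86a, Card19, Ckap4 and Kpna2, the last an importin that carries proteins into the nucleus, fell with log2 fold changes of −1.81, −1.30, −2.02 and −1.66 and edgeR adjusted p between 2.06e-07 and 2.31e-07. In each of these 6 genes the lowest sub-SCI library was above the highest +MSC-4w library, as in 1085 of the 1097 lower DEGs.

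Among the risen, Pygb, the brain form of glycogen phosphorylase, was at 159, 139 and 140.1 CPM in sub-SCI and 425, 351, 357 and 414 CPM in +MSC-4w, with a log2 fold change of 1.41 ± 0.10 (edgeR adjusted p = 1.85e-08). Kcna2, a potassium channel subunit that lies beside the nodes of myelinated axons, rose from 82.9, 96.4 and 40.1 CPM to 452, 363, 372 and 449 CPM, a log2 fold change of 2.48 ± 0.22 (edgeR adjusted p = 2.31e-07). Its level in +PBS-4w, 228 ± 21.7 CPM (SD, n = 4), lay between the 2 groups. Log2 fold changes were 2.15 ± 0.18 for Hspa12a, an atypical member of the HSP70 family, and 1.24 ± 0.11 for Slc4a3, a chloride-bicarbonate exchanger (edgeR adjusted p = 1.71e-07 and 3.34e-07). Insyn2, a protein of inhibitory synapses, rose by 2.11 ± 0.20 to 13.1, 11.1, 13.9 and 11.2 CPM (edgeR adjusted p = 6.26e-07), where Intact cord held 13.1 ± 1.07 CPM (SD, n = 4). Fam151a, Tom1l2 and Dnajc27 complete the 8 and rose by 1.44, 1.46 and 1.36 (edgeR adjusted p between 2.50e-07 and 8.11e-07).

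The 27 lists of cell type markers and pathway genes differed in direction, as the plot of listed genes shows. Of the 441 genes listed, 425 were in the table and 421 were tested.

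**Figure D2:**
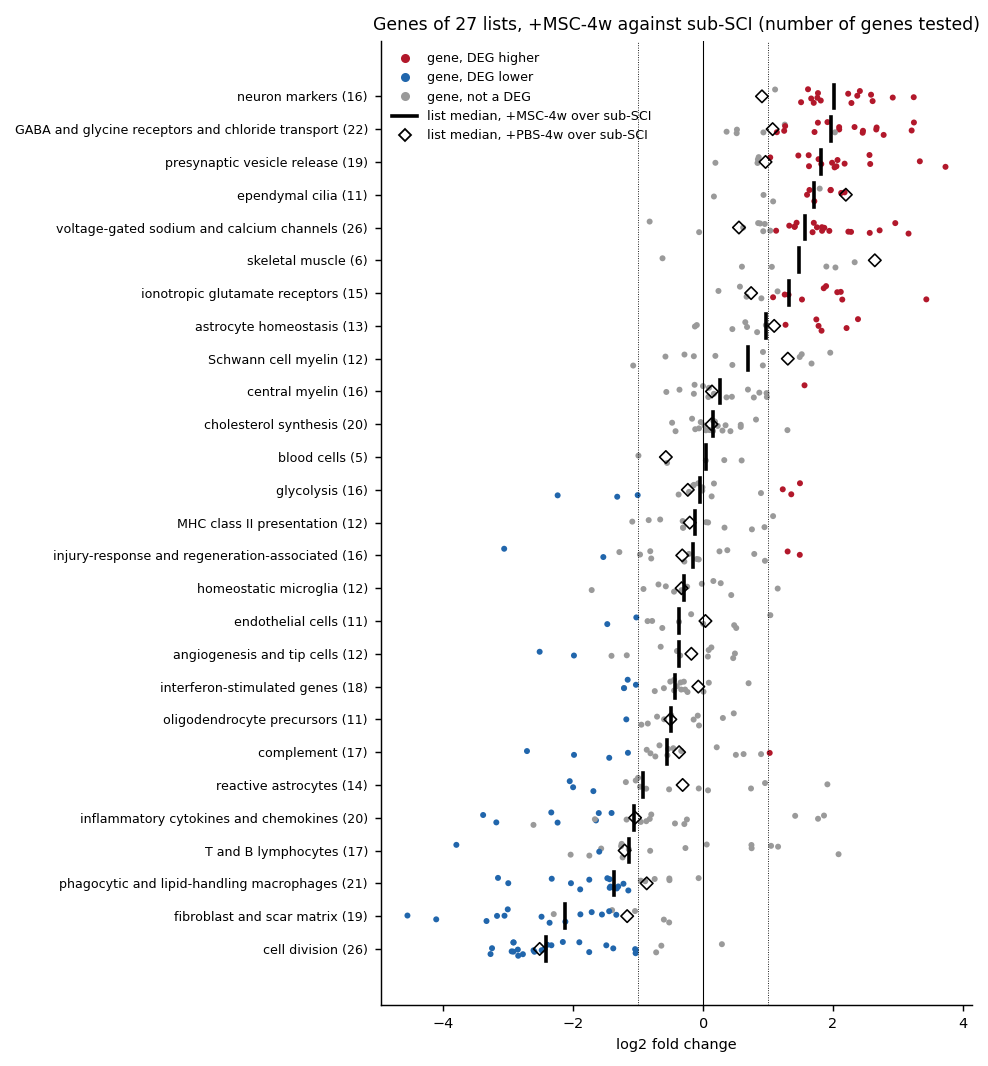
Log2 fold change of +MSC-4w over sub-SCI for each tested gene of the 27 lists (points, red and blue for higher and lower DEGs, gray for others), with the list median (bar) and the median of +PBS-4w over sub-SCI (open diamond), which shares the sub-SCI libraries. List medians run from −2.42 for cell division to 2.02 for neuron markers, and the diamonds lie nearer 0 than the bars for the neuronal lists but beside the bar for cell division.

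Neuronal genes were higher 4 wpt than before transplantation. Of the 16 neuron markers tested, 15 were higher DEGs and none was lower, with a median log2 fold change of 2.02, where 10.2% of all genes were called higher. The markers summed to 578.5 to 2605 CPM in sub-SCI, 2101 to 7300 CPM in +PBS-4w, 7327 to 9117 CPM in +MSC-4w and 11560 to 13740 CPM in Intact. In +PBS-4w over sub-SCI all 16 had positive log2 fold changes (median 0.905) and 1 was a higher DEG, where 4.28% of all genes were. The mean log2 CPM of the markers was 5.18, 5.53 and 3.65 in sub-SCI and 7.44, 6.88, 6.81 and 7.07 in +MSC-4w. In +PBS-4w it was 6.82, 5.22, 5.53 and 5.58, so that replicate 1 of +PBS-4w lay within the +MSC-4w range. The sub-SCI libraries thus varied among themselves more than those of +MSC-4w, and the count of 15 became 8 without sub-SCI replicate 3 and 9 without sub-SCI replicate 1. Replicate 3, lowest in neuron markers, was highest in scar matrix genes (mean log2 CPM of 8.08, 8.23 and 9.32 in sub-SCI and 5.61, 6.89, 6.47 and 6.39 in +MSC-4w), and its part in the difference was not tested beyond these counts.

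Chat, the acetylcholine-making enzyme that marks motor neurons, was at 7.53, 6.67 and 1.9 CPM in sub-SCI and 37.7, 42.7, 44.8 and 37.4 CPM in +MSC-4w, a log2 fold change of 2.92 ± 0.44 (edgeR adjusted p = 3.07e-05). Its +MSC-4w libraries spanned the Intact level of 39.4 ± 9.37 CPM (SD, n = 4), and the edgeR adjusted p of +MSC-4w against Intact was 0.940. Slc6a5, the glycine transporter of inhibitory neurons, rose from 22.4, 44.3 and 6.68 CPM to 379, 183, 128 and 235 CPM, a log2 fold change of 3.24 ± 0.55 (edgeR adjusted p = 8.70e-05). Rbfox3, which encodes the nuclear marker NeuN, and Map2, a dendritic microtubule protein, rose by 2.37 ± 0.38 and 1.76 ± 0.26 (edgeR adjusted p = 5.37e-05 and 1.96e-05). The neurofilament subunits Nefl, Nefm and Nefh, which form the axon's intermediate filaments, rose by 2.61, 2.58 and 2.28. Markers of the main transmitter classes rose as well, with log2 fold changes of 1.70 for Gad1 and 2.23 for Gad2, the GABA-making enzymes, 2.41 for Slc32a1, their vesicular transporter, and 1.77 for Slc17a6, that of glutamate. Celf4, Stmn2, Elavl4 and Tubb3 made up the rest of the 15 (log2 fold changes of 1.61, 1.66, 1.81 and 1.51). Eno2, an enolase of neurons, was not called, at 6.77, 2.1 and 1.39 CPM in sub-SCI and 15.8, 3.45, 4.01 and 6.54 CPM in +MSC-4w, where the groups overlapped (edgeR adjusted p = 0.295). Between +MSC-4w and +PBS-4w at day 35 no neuron marker was a DEG by edgeR, although 15 of 16 were higher at an unadjusted p under 0.05, with a median log2 fold change of 1.09, and DESeq2 called 2.

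**Figure D3:**
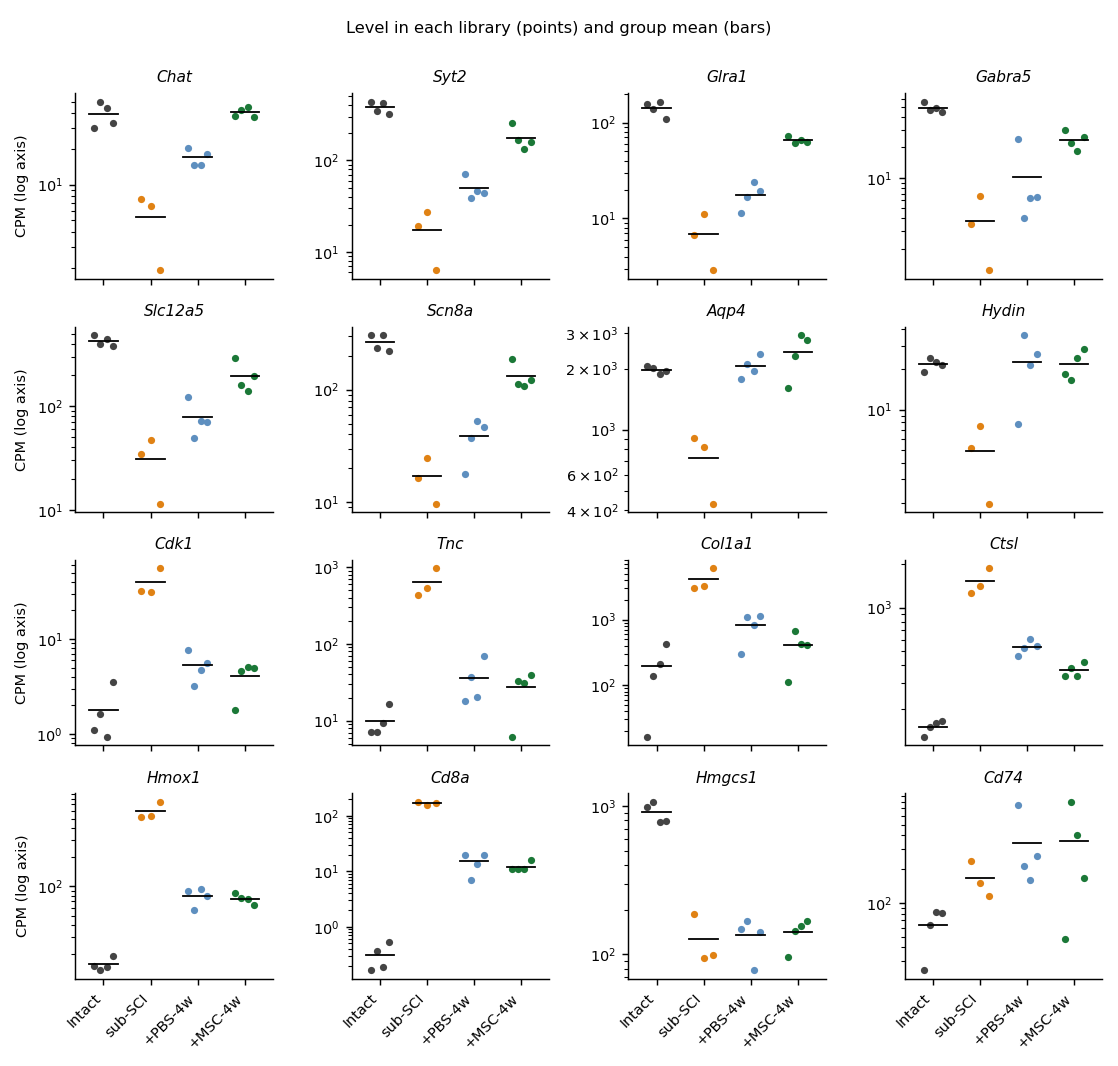
CPM on a log axis in each library (points) and group mean (bars) of Intact (n = 4), sub-SCI (n = 3), +PBS-4w (n = 4) and +MSC-4w (n = 4) for 16 genes described in the text. In Chat to Hydin all +MSC-4w points lie above all sub-SCI points, in Cdk1 to Cd8a all lie below them, and in Hmgcs1 and Cd74 the 2 groups overlap.

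Genes of the presynaptic terminal, where calcium entry makes vesicles fuse and release transmitter, were higher in 15 of 19 tested and lower in none (median log2 fold change 1.82). Over all genes 10.2% were called higher. In +PBS-4w over sub-SCI 2 of the 19 were higher DEGs (median 0.96), where 4.28% of all genes were. Syt2, the fast calcium sensor of spinal terminals, was at 19.4, 27.1 and 6.34 CPM in sub-SCI and 253, 165, 132 and 161 CPM in +MSC-4w, a log2 fold change of 3.33 ± 0.41 (edgeR adjusted p = 3.98e-06). Sv2c, a vesicle glycoprotein, went from 5.03, 7.79 and 5.02 CPM to 108, 74.9, 65.7 and 66.5 CPM, a log2 fold change of 3.73 ± 0.47 (edgeR adjusted p = 5.27e-06). These 2 were also DEGs against +PBS-4w at day 35, with log2 fold changes of 1.83 ± 0.34 and 2.06 ± 0.39 (edgeR adjusted p = 0.00669 and 0.00690), with +PBS-4w levels of 71.0, 38.5, 46.6 and 43.7 CPM and 4.81, 18.2, 27.5 and 25.2 CPM. No +PBS-4w library reached the lowest +MSC-4w library in either gene, but both calls were not kept without +MSC-4w replicate 1 or without +PBS-4w replicate 2. For Rims1, an active-zone scaffold, and Cplx2, a complexin that clamps the fusion machinery, log2 fold changes were 2.56 ± 0.36 and 1.47 ± 0.17 (edgeR adjusted p = 1.61e-05 and 2.38e-06). The fusion proteins Snap25 and Vamp1 and the synapsins Syn1 and Syn2 rose by 1.98, 2.18, 1.62 and 1.78. Vamp2, Sv2a, Syt4 and Stx1a were not called (log2 fold changes of 0.84, 0.85, 0.84 and 0.19).

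GABA-A receptors are chloride channels built of 5 subunits, usually alpha, beta and gamma, glycine receptors serve the same role in cord and brainstem, and the chloride exporter KCC2, encoded by Slc12a5, keeps chloride low enough for both to inhibit. Of 22 genes of this group tested, 16 rose and none fell (median log2 fold change 1.97), where 10.2% of all genes were called higher. In +PBS-4w over sub-SCI 5 of the 22 were higher DEGs (median 1.07), where 4.28% of all genes were. Gabra5 was at 3.49, 6.60 and 1.22 CPM in sub-SCI, 24.1, 4.02, 6.26 and 6.42 CPM in +PBS-4w and 29.6, 22.1, 18.6 and 25.5 CPM in +MSC-4w, a log2 fold change of 2.67 ± 0.55 over sub-SCI (edgeR adjusted p = 5.79e-04). Gabra3 was at 3.43, 5.69 and 1.86 CPM in sub-SCI and 26.8, 17.1, 13.8 and 22.8 CPM in +MSC-4w, a log2 fold change of 2.46 ± 0.39 (edgeR adjusted p = 4.34e-05). In both genes +MSC-4w lay above sub-SCI, while replicate 1 of +PBS-4w reached the +MSC-4w range in Gabra5. The day 35 differences from +PBS-4w, 1.23 ± 0.46 and 1.14 ± 0.33 on the log2 scale, did not pass (edgeR adjusted p = 0.122 and 0.0528). The alpha subunit genes Gabra2 and Gabra4 rose by 2.09 and 1.25, and Gabrb1, Gabrb2 and Gabrg1 by 1.91, 3.21 and 1.71. Slc12a5 rose from 34.7, 47.4 and 11.5 CPM to 293, 161, 140.4 and 197 CPM, a log2 fold change of 2.66 ± 0.41 (edgeR adjusted p = 4.06e-05), whereas Slc12a2, the chloride importer NKCC1, was at 318, 296 and 271 CPM and 387, 317, 383 and 427 CPM and was not called (log2 fold change 0.36 ± 0.14, edgeR adjusted p = 0.0391).

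Glra1, the alpha subunit of the adult glycine receptor, was 1 of 2 genes of the group that also differed from +PBS-4w. It was at 6.71, 11.2 and 2.88 CPM in sub-SCI, 11.3, 16.5, 23.8 and 19.3 CPM in +PBS-4w, 72.0, 61.2, 66.2 and 63.1 CPM in +MSC-4w and 143 ± 24.7 CPM in Intact (SD, n = 4). Its log2 fold change was 3.24 ± 0.39 over sub-SCI (edgeR adjusted p = 3.06e-06) and 1.89 ± 0.33 over +PBS-4w (edgeR adjusted p = 0.00446). The 3 injured groups did not overlap, although the highest sub-SCI library lay close to the lowest +PBS-4w library. Gabbr2, a subunit of the metabotropic GABA-B receptor, was the other gene of the group called at day 35, a log2 fold change of 1.32 ± 0.25 over +PBS-4w, with 1.77 ± 0.28 over sub-SCI (edgeR adjusted p = 0.00715 and 5.43e-05). Both day 35 calls were not kept without +MSC-4w replicate 1 or without +PBS-4w replicate 2. Its partner Gabbr1 rose by 1.13 and the glycine receptor subunits Glra2 and Glrb by 2.33 and 1.26. Gphn, which encodes the scaffold gephyrin, was not called at 0.52 ± 0.17 (edgeR adjusted p = 0.0163), nor were Glra3, Gabrg3, Gabre and Gabrd, which had levels below 3 CPM in all 7 libraries.

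Excitatory receptors moved the same way. Of 15 ionotropic glutamate receptor genes tested, 10 rose and none fell (median log2 fold change 1.31), where 10.2% of all genes were called higher. In +PBS-4w over sub-SCI 1 of the 15 was a higher DEG (median 0.74), where 4.28% of all genes were. Grin2a, an NMDA receptor subunit of mature synapses, was at 0.698, 1.92 and 0.271 CPM in sub-SCI and 15.8, 7.80, 8.34 and 9.51 CPM in +MSC-4w, a log2 fold change of 3.44 ± 0.62 (edgeR adjusted p = 1.77e-04). Grin2b, Grin2c, Grin3a and the obligatory subunit Grin1 rose by 2.14, 1.08, 1.89 and 2.12, and the AMPA receptor genes Gria1, Gria2, Gria3 and Gria4 by 1.86, 1.52, 1.31 and 2.06. Of the kainate receptor genes only Grik3 was called (1.25), while Grik1, Grik2, Grik4 and Grik5 were at 1.15, 0.67, 0.57 and 0.24. None of the 15 was a DEG against +PBS-4w by edgeR (12 were higher at an unadjusted p under 0.05, and DESeq2 called 2).

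Voltage-gated channels, which start and carry action potentials (sodium) and couple them to calcium entry, rose in 18 of 26 genes tested and fell in none (median log2 fold change 1.56). Over all genes 10.2% were called higher. In +PBS-4w over sub-SCI 2 of the 26 were higher DEGs (median 0.55), where 4.28% of all genes were. Scn8a, the main sodium channel of mature nodes of Ranvier, was at 16.3, 24.9 and 9.73 CPM in sub-SCI, 18.0, 37.6, 52.9 and 46.3 CPM in +PBS-4w and 186, 112, 107 and 122 CPM in +MSC-4w, a log2 fold change of 2.96 ± 0.37 over sub-SCI (edgeR adjusted p = 4.20e-06). Cacng2, the AMPA receptor partner stargazin, was at 5.84, 8.01 and 2.20 CPM in sub-SCI, 9.65, 8.29, 10.2 and 9.59 CPM in +PBS-4w and 49.9, 28.3, 27.8 and 34.7 CPM in +MSC-4w, a log2 fold change of 2.72 ± 0.35 (edgeR adjusted p = 5.28e-06). Both were DEGs against +PBS-4w as well, with log2 fold changes of 1.77 ± 0.31 and 1.9 ± 0.30 (edgeR adjusted p = 0.00498 and 0.00312), and in both every +MSC-4w library was above every +PBS-4w library. The other 2 genes of the list called against +PBS-4w, Scn9a and Cacna2d2, differed by 1.59 ± 0.31 and 1.25 ± 0.23 (edgeR adjusted p = 0.00771 and 0.00669). These 4 day 35 calls, too, were not kept without +MSC-4w replicate 1 or without +PBS-4w replicate 2. Scn9a, a channel best known from peripheral sensory neurons, was highest in replicate 2 of +MSC-4w (16.4, 43.9, 19.5 and 14.2 CPM, against 7.47, 5.91 and 4.98 CPM in sub-SCI). Scn1a, the sodium channel of inhibitory neurons, rose from 10.6, 27 and 3.32 CPM to 154, 105, 98.5 and 130.2 CPM, and the subunits Scn2b and Scn4b rose by 1.70 and 2.56. Cacnb3, a calcium channel beta subunit, ran in the other direction at 43.5, 38.3 and 44.8 CPM in sub-SCI and 19.3, 28.8, 23.7 and 23.4 CPM in +MSC-4w, short of the fold threshold at −0.82 ± 0.18 (edgeR adjusted p = 9.80e-04).

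**Figure D4:**
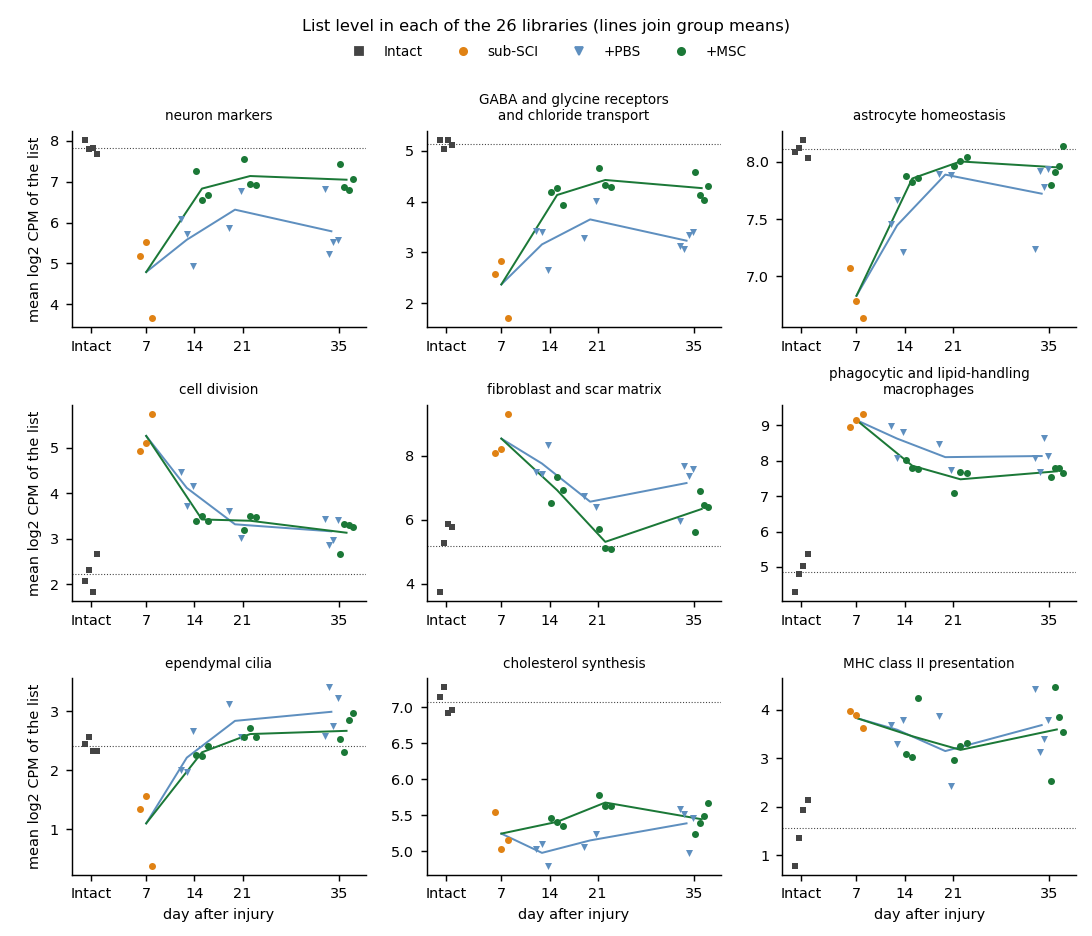
Mean log2 CPM of 9 gene lists in each of the 26 libraries (points, spread sideways for sight) against the day after injury, with Intact at the left and its mean as a dotted line, and lines joining the means of sub-SCI and the +PBS or +MSC groups. The neuron markers of +MSC-4w lie between 6.81 and 7.44 against 3.65 to 5.53 in sub-SCI, cell division falls in both arms, and cholesterol synthesis stays below Intact in the group means of every day.

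Of 13 genes of the homeostatic work of astrocytes (uptake of transmitters, potassium and water), 6 rose and none fell (median log2 fold change 0.96). Over all genes 10.2% were called higher. Aqp4, the water channel of astrocyte endfeet, was at 909.6, 820.3 and 431 CPM in sub-SCI and 1610.1, 2309, 2931 and 2785 CPM in +MSC-4w, a log2 fold change of 1.74 ± 0.26 (edgeR adjusted p = 2.34e-05). Log2 fold changes were 2.38 ± 0.31 for Slc6a11, a GABA transporter, 2.21 ± 0.40 for Slc1a2, the main glutamate transporter, and 1.82 ± 0.32 for Gjb6, the gap junction protein connexin 30 (edgeR adjusted p = 7.50e-06, 1.90e-04 and 1.22e-04). Fgfr3 and the bicarbonate transporter Slc4a4 were the other DEGs (1.27 and 1.78), while Glul, glutamine synthetase, was at −0.10. In +PBS-4w 5 of the 13 were higher DEGs over sub-SCI (median 1.09), where 4.28% of all genes were. None of the 13 differed between +MSC-4w and +PBS-4w by edgeR (4 higher and 2 lower at an unadjusted p under 0.05, and 1 higher by DESeq2).

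Of 14 genes of reactive astrocytes, 3 fell and none rose (median log2 fold change −0.92, against 6.1% of all genes lower). Without the 8 libraries labelled replicate 1, 6 fell and 1 rose, Gfap. Nes, the intermediate filament of dividing glia and progenitors, went from 68.5, 58.5 and 76.4 CPM to 13.3, 17.1, 21.4 and 15.8 CPM, a log2 fold change of −2.0 ± 0.20 (edgeR adjusted p = 8.11e-07), and Timp1, a metalloproteinase inhibitor, from 213, 213 and 353 CPM to 71.8, 103, 70.3 and 76.6 CPM, a log2 fold change of −1.69 ± 0.28 (edgeR adjusted p = 8.98e-05). Emp1 fell by 2.05 ± 0.46 (edgeR adjusted p = 0.00113) and was not called without sub-SCI replicate 3 (edgeR adjusted p = 0.0165). Members also lay on the other side, with 3 of 14 higher at an unadjusted p under 0.05, among them Lcn2, lipocalin 2, at 1.91 ± 0.77 (edgeR adjusted p = 0.0491). Gfap, the classic filament of reactive astrocytes, was at 7919, 4611 and 3680.2 CPM in sub-SCI and 8944, 9310.5, 11665 and 11901 CPM in +MSC-4w, above all sub-SCI libraries but short of the thresholds at 0.95 ± 0.29 (edgeR adjusted p = 0.0109). Gfap was called higher without sub-SCI replicate 1 (log2 fold change 1.33) and without the 8 libraries labelled replicate 1 (1.37). Against Intact 11 of the 14 were still higher DEGs, where 7.25% of all genes were.

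Ependymal cells line the central canal and carry motile cilia. Of 11 genes of such cilia tested, 7 rose and none fell (median log2 fold change 1.71), where 10.2% of all genes were called higher. Dnah9, an axonemal dynein, was at 7.21, 9.90 and 4.75 CPM in sub-SCI and 28.8, 25.5, 26.3 and 33.1 CPM in +MSC-4w, a log2 fold change of 1.96 ± 0.22 (edgeR adjusted p = 1.95e-06), and Hydin, a central-apparatus protein, went from 5.12, 7.5 and 1.97 CPM to 18.4, 16.6, 24.4 and 28.6 CPM, a log2 fold change of 2.18 ± 0.40 (edgeR adjusted p = 1.88e-04). Their Intact means, 29.8 ± 2.70 and 22 ± 2.18 CPM (SD, n = 4), lay within the +MSC-4w range. Cfap126, Ak7, Tmem212 and Spag17 rose by 1.6, 1.64, 1.71 and 1.96, and Ccdc153 by 2.12, a call lost without the 8 libraries labelled replicate 1 (edgeR adjusted p = 0.0155). In +PBS-4w the same list held 10 higher DEGs over sub-SCI (median 2.20), where 4.28% of all genes were. No gene of the list differed between +MSC-4w and +PBS-4w by edgeR or DESeq2 (1 lower at an unadjusted p under 0.05).

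Of 16 central myelin genes tested 1 rose and none fell (median log2 fold change 0.26), where 10.2% of all genes were called higher. At an unadjusted p under 0.05, 6 were higher and 1 lower. Against Intact the median was −0.85 and 7 were lower DEGs, where 1.53% of all genes were. The riser was Opalin, a protein of mature oligodendrocytes, at 41.8, 83.2 and 34.9 CPM in sub-SCI and 151, 103, 165 and 209 CPM in +MSC-4w, a log2 fold change of 1.56 ± 0.33 (edgeR adjusted p = 6.97e-04), and it was not called without the 8 libraries labelled replicate 1 (edgeR adjusted p = 0.0144). Mbp, myelin basic protein, was at 21991, 14012 and 10679 CPM in sub-SCI and 16657, 9718, 14574 and 15838 CPM in +MSC-4w, where the groups overlapped (log2 fold change −0.13 ± 0.28). Mobp, Ermn and Aspa had higher values short of the thresholds (0.98, 0.78 and 0.98). Aspa passed them under the replicate block (1.04) and without +MSC-4w replicate 3 or 4 or sub-SCI replicate 1 (1.03 to 1.07), and Mobp without +MSC-4w replicate 2 or sub-SCI replicate 1 (1.139 and 1.175), so that 0 to 3 genes of the list were called over the alternatives. The median moved to 0.53 without sub-SCI replicate 1 and to 0.03 without sub-SCI replicate 3.

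Oligodendrocyte precursors, which divide and renew myelin, held 1 lower DEG among 11 genes tested and no higher one, where 6.1% of all genes were called lower (median log2 fold change −0.49, and −0.17 without sub-SCI replicate 1). Nkx2-2, a transcription factor of precursors entering differentiation, was at 42.3, 32.5 and 22.3 CPM in sub-SCI and 11, 13.4, 14.1 and 18.6 CPM in +MSC-4w, a log2 fold change of −1.18 ± 0.26 (edgeR adjusted p = 0.00107), and the call was lost without sub-SCI replicate 1 (edgeR adjusted p = 0.0118). Tcf7l2, at −0.95, was called without +MSC-4w replicate 2 or sub-SCI replicate 2 or 3 (−1.003 to −1.109). Pdgfra and Cspg4, the defining surface markers, were not called (−0.49 and −0.08). Schwann cell myelin held no DEG among 12 genes by edgeR or by DESeq2 on all libraries (1 higher and 1 lower at an unadjusted p under 0.05), with a median of 0.68. DESeq2 on the 2 groups called 2 higher, and edgeR called 1 higher without sub-SCI replicate 3 and 1 lower without +MSC-4w replicate 2. The list summed to 689.3 to 1341 CPM in sub-SCI and 625 to 2739 CPM in +MSC-4w, so that the groups overlapped.

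Cell division was the list with the lowest median. Of 26 genes of the S and M phases tested, 23 fell and none rose (median log2 fold change −2.42), where 6.1% of all genes were called lower. Ccnb1, the cyclin of mitotic entry, was at 19.3, 22.2 and 39.8 CPM in sub-SCI and 2.27, 4.24, 4.08 and 3.66 CPM in +MSC-4w, a log2 fold change of −2.92 ± 0.26 (edgeR adjusted p = 2.50e-07), and its level in Intact was 3.02 ± 0.544 CPM (SD, n = 4). Cdk1, its kinase, went from 32.4, 31.3 and 55.4 CPM to 1.79, 4.59, 5.01 and 4.99 CPM, a log2 fold change of −3.27 ± 0.41 (edgeR adjusted p = 4.22e-06). Plk1, Bub1 and Bub1b, kinases of mitosis and its checkpoint, fell with log2 fold changes of −2.85, −2.49 and −3.25, Top2a, the topoisomerase of dividing cells, with −2.92 and Mki67, the Ki-67 antigen, with −2.44. The MCM helicase genes of DNA replication fell with log2 fold changes of −1.49 (Mcm2), −1.75 (Mcm3), −1.05 (Mcm4), −2.16 (Mcm5) and −1.91 (Mcm6), while Mcm7 and Pcna did not reach the fold threshold (−0.64 and −0.72). Aurkb, a mitotic kinase, did not follow the others, at 30.3, 43.4 and 46.1 CPM in sub-SCI and 108, 7.43, 70.0 and 9.94 CPM in +MSC-4w, with 2 libraries above and 2 below the whole sub-SCI range. The same list held 23 lower DEGs in +PBS-4w over sub-SCI (median −2.52), where 3.09% of all genes were. None of the list differed between +MSC-4w and +PBS-4w by edgeR or DESeq2 (1 higher and 1 lower at an unadjusted p under 0.05).

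Many genes of mitosis share promoter elements, the cell cycle genes homology region (CHR) and CCAAT boxes, through which the DREAM complex and the factor NF-Y act. RefSeq promoters of build GRCr8, 250 bases before to 50 after the start, matched 22 of the 27 genes listed. The CHR letters TTTGAA were found on either strand in 11 of the 22 (50.0%), against 18.3% of all 33469 promoters, and CCAAT on either strand in 17 (77.3%), against 37.5%. Matches of the 2 motifs can overlap by 1 end base at most, and a match is a description only. The bases before the start are shown for the 3 DEGs of smallest p that hold both motifs there, Birc5 at chr10:103571896-103572145, Prc1 at chr1:143659231-143659480 and Cdk1 at chr20:19265043-19265292, all on the plus strand and written in the gene's direction. Capitals mark the CHR letters (TTTGAA, or TTCAAA where they lie on the other strand) and the CCAAT box (CCAAT, or ATTGG on the other strand).
Birc5: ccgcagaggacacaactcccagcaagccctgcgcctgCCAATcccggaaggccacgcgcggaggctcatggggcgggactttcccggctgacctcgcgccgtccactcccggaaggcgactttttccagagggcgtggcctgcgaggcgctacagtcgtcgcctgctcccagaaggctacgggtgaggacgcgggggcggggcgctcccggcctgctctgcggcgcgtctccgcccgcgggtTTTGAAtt
Prc1: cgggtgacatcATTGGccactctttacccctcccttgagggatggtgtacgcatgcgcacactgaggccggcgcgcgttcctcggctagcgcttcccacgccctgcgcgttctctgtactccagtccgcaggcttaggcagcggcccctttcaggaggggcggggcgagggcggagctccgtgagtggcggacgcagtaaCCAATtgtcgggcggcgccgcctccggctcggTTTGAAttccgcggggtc
Cdk1: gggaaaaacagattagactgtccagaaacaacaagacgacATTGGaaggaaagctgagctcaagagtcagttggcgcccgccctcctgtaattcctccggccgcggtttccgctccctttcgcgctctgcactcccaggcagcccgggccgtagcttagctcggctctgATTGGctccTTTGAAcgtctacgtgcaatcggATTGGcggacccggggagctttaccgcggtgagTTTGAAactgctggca
In these sequences the last CHR match begins 8 bases before the start in Birc5, 18 in Prc1 and 16 in Cdk1. Birc5, the survival and chromosome-passenger protein survivin, was at 16.3, 18.9 and 29.2 CPM in sub-SCI and 3.10, 3.93, 3.54 and 3.57 CPM in +MSC-4w, a log2 fold change of −2.60 ± 0.29 (edgeR adjusted p = 1.81e-06). Prc1, which bundles the microtubules of the dividing spindle, went from 45.8, 44.7 and 79.5 CPM to 4.02, 9.44, 10.2 and 9.38 CPM, a log2 fold change of −2.77 ± 0.32 (edgeR adjusted p = 2.08e-06). In both, every +MSC-4w library was below every sub-SCI library, as in 1085 of the 1097 lower DEGs.

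Genes of phagocytic, lipid-handling macrophages fell in 15 of 21 tested and rose in none (median log2 fold change −1.38), where 6.1% of all genes were called lower. Yet 18 of the 21 were still higher DEGs against Intact (median 2.46), where 7.25% of all genes were. Ctsl, a lysosomal cathepsin, was at 1264, 1415 and 1863 CPM in sub-SCI, 461, 525, 603 and 540 CPM in +PBS-4w and 338, 381, 339 and 420.3 CPM in +MSC-4w, a log2 fold change of −2.04 ± 0.13 over sub-SCI (edgeR adjusted p = 5.89e-09). Hmox1, which degrades heme, went from 522, 534 and 743 CPM to 84.9, 75.5, 75.0 and 64.6 CPM, a log2 fold change of −3.00 ± 0.25 (edgeR adjusted p = 1.71e-07), with 80.3 ± 16.4 CPM in +PBS-4w (SD, n = 4). For Ctsl all +MSC-4w libraries were below all +PBS-4w libraries, whereas for Hmox1 the 2 groups overlapped. No gene of the list was a DEG between these groups by edgeR or DESeq2. At an unadjusted p under 0.05, 6 of 21 were lower, where 2028 of all 17990 genes were. In +PBS-4w over sub-SCI 5 were lower DEGs, where 3.09% of all genes were. Gpnmb, a marker of lipid-laden phagocytes, fell by 1.33 ± 0.32 (edgeR adjusted p = 0.00243) and remained at 1896, 2666, 2683 and 2430.5 CPM against 25.3 ± 7.42 CPM in Intact (SD, n = 4). Log2 fold changes were −1.75 ± 0.32 for Cd68, a lysosomal protein of phagocytes, −1.44 ± 0.28 for Trem2, a lipid-sensing receptor, −1.31 ± 0.18 for Plin2, which coats lipid droplets, and −2.33 ± 0.48 for Spp1, osteopontin (edgeR adjusted p = 1.94e-04, 3.79e-04, 1.45e-05 and 6.14e-04). Abca1, Abcg1 and Apoe, which export cholesterol from cells, were not called (−0.52, −0.52 and −0.75).

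None of 12 genes of homeostatic microglia was a DEG by edgeR with all libraries (median log2 fold change −0.29, with 2 higher and 3 lower at an unadjusted p under 0.05), and DESeq2 called 1 higher. This was Crybb1 (1.15, edgeR adjusted p = 0.0114). Alternatives of edgeR called it under the replicate block (1.32), with a term for the 8 libraries labelled replicate 1 (1.25) and without those 8 (1.40). The stricter filter of at least 10 counts (1.16) and the fit without sub-SCI replicate 1 (1.44) called it too. P2ry12, which distinguishes resident microglia from blood-borne macrophages, was at 46.4, 38.6 and 30.9 CPM in sub-SCI and 35.2, 45, 33.3 and 58.8 CPM in +MSC-4w. Tmem119, used in the same way, was at 36.8, 72.2 and 48.7 CPM in sub-SCI and 66.6, 65.3, 59.7 and 61.8 CPM in +MSC-4w. The 2 groups overlapped in both genes.

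Fibroblast and scar matrix genes fell in 14 of 19 tested and rose in none (median log2 fold change −2.12), where 6.1% of all genes were called lower. The count was 5 without sub-SCI replicate 3. Tnc, the matrix glycoprotein tenascin C, was at 435, 535 and 963 CPM in sub-SCI and 6.13, 32.8, 31.2 and 39.7 CPM in +MSC-4w, a log2 fold change of −4.55 ± 0.52 (edgeR adjusted p = 2.23e-06). Postn, periostin, went from 175, 256 and 306 CPM to 4.77, 25.8, 13.7 and 12.4 CPM, a log2 fold change of −4.11 ± 0.59 (edgeR adjusted p = 1.64e-05), and Col1a1, the main fibrillar collagen chain, from 3022, 3215 and 6001 CPM to 113, 679.8, 421 and 402 CPM, a log2 fold change of −3.33 ± 0.68 (edgeR adjusted p = 5.35e-04). Replicate 3 was the highest sub-SCI library and replicate 1 the lowest +MSC-4w library in all 3 genes, and no +MSC-4w library reached sub-SCI. Loxl2 and Lox, which cross-link collagen, fell with log2 fold changes of −2.49 ± 0.40 and −3.06 ± 0.70 (edgeR adjusted p = 5.47e-05 and 0.00141), and the log2 fold change of Fn1, fibronectin, was −2.36 ± 0.53 (edgeR adjusted p = 0.00125). Pdgfrb, the receptor that marks scar-forming pericytes and fibroblasts, fell by 1.34 ± 0.31 (edgeR adjusted p = 0.00145). Tagln, a smooth muscle actin-binding protein, fell by 1.45 ± 0.29 (edgeR adjusted p = 5.26e-04), with replicate 1 of +MSC-4w apart at 83.6, 39.3, 42.3 and 42.1 CPM. Dcn, Lum, Sparc, Col12a1 and Acta2 were not called (−1.05, −2.30, −0.52, −1.40 and −0.61). In the direct comparison with +PBS-4w the median was −0.91, no gene was a DEG by edgeR or DESeq2, and 5 were lower at an unadjusted p under 0.05.

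Angiogenesis and endothelial genes each held 2 lower DEGs and none higher, where 6.1% of all genes were called lower. Among 12 genes of angiogenesis the basement membrane chains Col4a1 and Col4a2 fell and the other 10 were not called (median log2 fold change −0.38, −0.06 without sub-SCI replicate 3 and −0.63 without +MSC-4w replicate 1). Col4a1 was at 616, 672 and 864 CPM in sub-SCI and 80.4, 154, 125 and 141 CPM in +MSC-4w, a log2 fold change of −2.52 ± 0.26, and Col4a2 fell by 1.99 ± 0.26 (edgeR adjusted p = 1.08e-06 and 7.28e-06). Of 11 endothelial genes Tie1, a receptor of growing vessels, fell from 143, 155 and 178 CPM to 37.3, 58.6, 63.2 and 68.9 CPM, a log2 fold change of −1.48 ± 0.18 (edgeR adjusted p = 2.91e-06). Esam, a junction protein, was called at −1.03 ± 0.18 but lay at the fold threshold, which it missed without sub-SCI replicate 3 or +MSC-4w replicate 2 or 3 (log2 fold change of −0.932 to −0.996), and under the replicate block (−0.9626). Cdh5 and Vwf, which define endothelium, were not called (−0.79 and 0.00).

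Among the immune lists some chemokine genes and CD8 transcripts fell, while no gene of MHC class II presentation was called. Of 20 inflammatory cytokine and chemokine genes 7 fell and none rose (median log2 fold change −1.07), where 6.1% of all genes were called lower. Ccl5, which attracts T cells, was at 21.8, 16.3 and 11.3 CPM in sub-SCI and 0.398, 1.73, 3.58 and 0.516 CPM in +MSC-4w, a log2 fold change of −3.39 ± 0.54 (edgeR adjusted p = 5.05e-05). Ccl7, a monocyte attractant, went from 7.82, 17.6 and 15.7 CPM to 0.239, 3.08, 0.930 and 1.63 CPM, a log2 fold change of −3.18 ± 0.48 (edgeR adjusted p = 2.68e-05), and Ccl2, another, from 15.9, 25.8 and 20.5 CPM to 1.31, 8.24, 4.15 and 3.66 CPM, a log2 fold change of −2.24 ± 0.45 (edgeR adjusted p = 5.05e-04). In all 3 the +MSC-4w libraries lay below the sub-SCI libraries, as in 1085 of the 1097 lower DEGs. Arg1, the arginase of alternatively activated macrophages, fell by 2.34 ± 0.36 (edgeR adjusted p = 3.29e-05) and was at 5.53, 6.4, 5.55 and 6.58 CPM at day 35, against 7.30 ± 1.13 CPM in Intact (SD, n = 4). Ccl4, Il1a and Il1rn, the last an inhibitor of interleukin 1, fell with −1.65, −1.41 and −1.61. The other chemokine genes of the list, among them Cxcl1, Cxcl2, Cxcl10, Cxcl13 and Cxcl16, were not called. S100a8, a subunit of neutrophil calprotectin, was at 15.6, 16.6 and 21.5 CPM in sub-SCI and 61.8, 93.5, 12.9 and 91.6 CPM in +MSC-4w, where 3 libraries were high and replicate 3 was not (edgeR adjusted p = 0.115). S100a9, its partner, was at 18.4, 22 and 30.9 CPM and 69.6, 123, 17.1 and 114 CPM, with the same 3 libraries high (edgeR adjusted p = 0.129).

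Of 17 lymphocyte genes 2 fell and none rose, where 6.1% of all genes were called lower (median log2 fold change −1.15). DESeq2 on all libraries called 5 lower, edgeR 4 without +MSC-4w replicate 2, and 7 were lower at an unadjusted p under 0.05. Cd8a was at 178, 159 and 168 CPM in sub-SCI, 20.0, 7.02, 13.4 and 20.0 CPM in +PBS-4w and 10.9, 10.9, 10.8 and 15.8 CPM in +MSC-4w, a log2 fold change of −3.80 ± 0.39 over sub-SCI (edgeR adjusted p = 9.83e-07), and Cd8b went from 33.4, 38.6 and 29.0 CPM to 7.48, 13, 12.8 and 11.1 CPM, a log2 fold change of −1.6 ± 0.28 (edgeR adjusted p = 1.08e-04). Cd3e, a chain of the T cell receptor complex, was at 4.56, 4.78 and 3.42 CPM in sub-SCI and 0.159, 3.19, 2.0 and 0.215 CPM in +MSC-4w and was not called, nor was Cd3d at −2.04 ± 0.64 (edgeR adjusted p = 0.0654 and 0.0135). Cd3d was called by DESeq2 on all libraries (−2.1) and on the 2 groups (−2.08), and by edgeR without +MSC-4w replicate 2 (−2.73). In rats macrophages can carry CD8, and the cells that held these transcripts were not identified. Jchain, a product of antibody-secreting cells, was high in 2 +MSC-4w libraries, at 1.03, 15.3, 14.7 and 3.87 CPM against 1.57, 2.90 and 1.73 CPM in sub-SCI, and was not called (edgeR adjusted p = 0.0466).

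The 12 genes of MHC class II presentation held no DEG by edgeR or DESeq2 (median log2 fold change −0.13, 1 lower at an unadjusted p under 0.05). Against Intact 6 of them remained higher DEGs, where 7.25% of all genes were. Cd74, the invariant chain, was at 238, 149.6 and 115 CPM in sub-SCI and 47.7, 798, 401 and 167 CPM in +MSC-4w, so that the +MSC-4w libraries lay on both sides of the sub-SCI range. Of 17 complement genes 4 fell and 1 rose, where 6.1% of all genes were called lower and 10.2% higher, with a median log2 fold change of −0.55, 2 lower without sub-SCI replicate 1 or without +MSC-4w replicate 4, and 15 higher DEGs against Intact, where 7.25% of all genes were. C5ar1, the receptor of the anaphylatoxin C5a, went from 71.4, 87.2 and 92.1 CPM to 13.3, 16.9, 8.55 and 12.2 CPM, a log2 fold change of −2.71 ± 0.27 (edgeR adjusted p = 8.11e-07), and C3ar1, that of C3a, from 34.4, 41.7 and 36.8 CPM to 5.29, 12.5, 11.3 and 8.69 CPM, a log2 fold change of −1.99 ± 0.38 (edgeR adjusted p = 3.33e-04). Cfd and C1qc were the other 2 that fell (−1.45 and −1.16), each lost in some fits without 1 library (edgeR adjusted p of up to 0.0252 and 0.0228), and C4a rose by 1.02 ± 0.27 at 2.94, 6.47, 4.29 and 4.69 CPM in +MSC-4w (edgeR adjusted p = 0.00460), a gene whose reads may be shared with its near copy C4b and whose call was lost under the replicate block and without +MSC-4w replicate 2 or any sub-SCI library.

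Of 18 interferon-stimulated genes 3 fell and none rose, where 6.1% of all genes were called lower (median log2 fold change −0.43), with 1 left without sub-SCI replicate 2 and 0 without +MSC-4w replicate 1 (edgeR; 6 of the 18 were lower at an unadjusted p under 0.05 with all libraries, and DESeq2 called 4). The 3 were Gbp2, a guanylate-binding protein, Tap1, the peptide transporter of MHC class I loading, and Psmb9, an immunoproteasome subunit, with −1.22, −1.03 and −1.16. Gbp2 was at 102, 119 and 116 CPM in sub-SCI and 23.0, 71.5, 55.5 and 42.8 CPM in +MSC-4w, where replicate 1 was lowest, and without that library its log2 fold change was −0.99. Psmb9 was also lost without sub-SCI replicate 3 (edgeR adjusted p = 0.0112). Ifit1, an interferon-induced RNA-binding protein outside this list, went the other way, from 0.203, 0.254 and 0.305 CPM to 8.63, 20.9, 15.2 and 12.6 CPM, a log2 fold change of 5.80 ± 1.49 (edgeR adjusted p = 0.00357), and stood at 41.9, 29.4, 26.4 and 0.413 CPM in +PBS-4w. The call was lost when any sub-SCI library was left out (edgeR adjusted p of 0.0166 to 0.0190). Its relatives Ifit2 and Ifit3 were not called (−0.34 and 0.09), and reads shared between such paralogs may be assigned to either.

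Cholesterol synthesis genes, which supply myelin and are switched on together by SREBP-2 when sterols run low, held no call between day 7 and day 35. None of 20 was a DEG by edgeR or DESeq2 (median log2 fold change 0.15, with 4 higher and 1 lower at an unadjusted p under 0.05), while 18 were lower DEGs against Intact (median −1.68), where 1.53% of all genes were. Hmgcs1, HMG-CoA synthase, was at 186, 94.5 and 99.1 CPM in sub-SCI and 96.2, 143, 156 and 168 CPM in +MSC-4w against 905 ± 143 CPM in Intact (SD, n = 4), a log2 fold change of −2.68 ± 0.26 to Intact (edgeR adjusted p = 1.04e-07). Insig1, a sterol-regulated inhibitor of the pathway, had the smallest p against sub-SCI, at 58.8, 47.3 and 44.5 CPM and 102, 72.2, 65.1 and 114 CPM, short of the fold threshold at 0.81 ± 0.19 (edgeR adjusted p = 0.00204). Sqle, squalene epoxidase, was at −0.12. The sterol element TCACNCCAC, searched on both strands, was in 0 of the 14 promoters matched and in 1.1% of all promoters.

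Glycolysis genes went both ways, with 3 higher and 3 lower DEGs among 16, where 10.2% of all genes were called higher and 6.1% lower. Aldoc, the brain aldolase, and the phosphofructokinase genes Pfkm and Pfkp rose by 1.49 ± 0.30, 1.36 ± 0.24 and 1.23 ± 0.22 (edgeR adjusted p = 4.97e-04, 1.56e-04 and 2.06e-04). Ldha, lactate dehydrogenase A, went from 314, 295 and 509 CPM to 176, 152, 130.4 and 137 CPM, a log2 fold change of −1.32 ± 0.16, and Slc16a3, the lactate exporter MCT4, fell by 2.24 ± 0.42 (edgeR adjusted p = 3.94e-06 and 2.70e-04). Hk2, an inducible hexokinase, was called at −1.01 ± 0.17 and fell short of the fold threshold without +MSC-4w replicate 1 or 4 or sub-SCI replicate 1 (log2 fold change of −0.89 to −0.97), while Hk1, the neuronal form, had higher values short of it at 0.89 ± 0.11 (edgeR adjusted p = 4.20e-06). Of 16 genes of the injury response and regeneration 2 rose and 2 fell, where 10.2% of all genes were called higher and 6.1% lower (median log2 fold change −0.16). The neurotrophin receptors Ntrk2 and Ntrk3 rose by 1.49 ± 0.23 and 1.30 ± 0.22 (edgeR adjusted p = 3.14e-05 and 9.17e-05). Atf3, a transcription factor of injured neurons, fell from 91.2, 74.3 and 79.7 CPM to 8.04, 40.2, 39.6 and 24.6 CPM, a log2 fold change of −1.54 ± 0.33 (edgeR adjusted p = 9.23e-04). Bdnf, brain-derived neurotrophic factor, was at 1.95, 2.61 and 1.29 CPM in sub-SCI and 7.00, 2.99, 2.65 and 2.45 CPM in +MSC-4w. Replicate 1 of +MSC-4w was high and the difference of 0.95 ± 0.43 did not pass (edgeR adjusted p = 0.0770). Gap43, the growth cone protein, was not called (0.37).

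The largest fold changes at a mean of 5 CPM or more in the higher group included matrix genes on the lower side and neuronal genes on the higher. Among the lower, besides Tnc and Postn, were Tnn, a relative of tenascin C, with −4.64 ± 0.81, Cthrc1, a collagen-linked protein of activated fibroblasts, with −4.23 ± 0.49, Msln, mesothelin of serosal and meningeal linings, with −4.07 ± 0.76, and Slpi, a leukocyte protease inhibitor, with −4.05 ± 0.70 (edgeR adjusted p = 1.29e-04, 2.23e-06, 2.46e-04 and 1.13e-04). Cthrc1 was at 48.1, 47.8 and 62.4 CPM in sub-SCI and 1.07, 5.2, 2.15 and 2.62 CPM in +MSC-4w. Msln was high in sub-SCI replicate 3 and in +MSC-4w replicate 2, at 51.9, 58.0 and 245 CPM and 4.18, 16.5, 3.18 and 3.87 CPM, though the groups did not overlap. Among the higher, besides Sv2c and Ifit1, were Caln1, a neuronal calcium-binding protein, with 3.79 ± 0.46, Lingo4, a leucine-rich repeat protein, with 3.69 ± 0.41, and Kcnk9, a leak potassium channel, with 3.65 ± 0.49 (edgeR adjusted p = 3.40e-06, 1.59e-06 and 9.04e-06). Lingo4 was at 1.1, 1.63 and 0.441 CPM in sub-SCI, 1.9, 3.6, 4.12 and 5.18 CPM in +PBS-4w and 16.7, 10.6, 14.8 and 12.6 CPM in +MSC-4w, and was a DEG against +PBS-4w by 1.89 ± 0.33 (edgeR adjusted p = 0.00458), a call not kept without +MSC-4w replicate 1 or without +PBS-4w replicate 2. Hif3a, a hypoxia-inducible factor subunit, was at 0.872, 1.12 and 0.915 CPM in sub-SCI and 44.4, 11.8, 3.36 and 3.31 CPM in +MSC-4w, a log2 fold change of 4.01 ± 0.96 (edgeR adjusted p = 0.00211), and its call rested on the high replicate 1 of +MSC-4w (without it 2.68, edgeR adjusted p = 0.0123) as well as on sub-SCI replicates 1 and 3.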

How the data were processed

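Libraries were grouped by their labels. The authors trimmed reads with Trim Galore 0.5.0, removed reads aligning to the human genome (GRCh38), aligned the rest to Rnor6 with HISAT2 2.1.0, kept properly paired reads with SAMtools 1.9 and deposited raw counts per gene from featureCounts 1.6.4. Annotation release and strand setting are not given in the sources used here, so overlapping genes, antisense genes and near copies are uncertain. Coordinates printed with promoters are those of GRCr8 (RefSeq), not of the counts.

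Counts of all 26 libraries (19496602 to 43468509 per library) were tested with edgeR 4.0.16 (filterByExpr, TMM, quasi-likelihood, 8 group means, no covariate), and 6513 genes of the table had no count. Genes with an edgeR p under 0.01 after Benjamini-Hochberg adjustment over all genes tested, and a log2 fold change beyond 1 in either direction, were DEGs. Each SE is the absolute log2 fold change divided by the square root of the quasi-likelihood F. It thus rests on the same fit over all 26 libraries as the p. CPM used TMM-scaled library sizes, and list means used log2 CPM with a prior count of 2. DESeq2 1.42.0, other filters, scaling, samples and a replicate block were alternatives, all run in R 4.3.3 and tested on simulated counts. Genes named are the 8 higher and 8 lower DEGs of smallest p, the 6 and 6 of largest fold with a mean of at least 5 CPM, the 4 of smallest p in each of 27 lists, members that account for a list, and 7 genes of inhibitory transmission and neurotrophin signaling from the study. Some of these genes are not reported here. The comparison and the lists were chosen with earlier results of these data known. No library pair agreed within sampling noise.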

Additional observations from a re-analysis of the deposited data

Results flagged for a closer look

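Of the 136 genes chosen by p, by fold or from the study, 5 had a single +MSC-4w library far from the other 3 (Dixon's ratio above its critical value for 4 libraries, which chance gives in about 1 of 20 groups). Replicate 2 was high for Tnn (4.87 CPM) and Msln (16.5 CPM). Replicate 1 was high for Tagln (83.6 CPM) and Bdnf (7.00 CPM), and replicate 4 for Cd8a (15.8 CPM).

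Of 444 genes listed or chosen, 9 changed since sub-SCI by a different amount in +MSC-4w than in +PBS-4w, by the direct test of the 2 groups of day 35. The differences on the log2 scale were 2.06 for Sv2c (edgeR adjusted p = 0.00690), 1.89 for Lingo4 (edgeR adjusted p = 0.00458) and 1.83 for Syt2 (edgeR adjusted p = 0.00669). Glra1 differed by 1.89 (edgeR adjusted p = 0.00446), Scn8a by 1.77 (edgeR adjusted p = 0.00498) and Cacng2 by 1.898 (edgeR adjusted p = 0.00312). Gabbr2 differed by 1.32 (edgeR adjusted p = 0.00715), Scn9a by 1.59 (edgeR adjusted p = 0.00771) and Cacna2d2 by 1.25 (edgeR adjusted p = 0.00669). All 9 were higher in +MSC-4w, where the same test called 89 of all 17990 genes (0.495%) higher. Genes chosen by p or fold, such as Lingo4, came from the comparison with sub-SCI, which uses the same +MSC-4w libraries. DESeq2 on all libraries called all 9, while edgeR on the 2 groups alone, or without +MSC-4w replicate 1, or without +PBS-4w replicate 2, called 0 of them, and without the 8 libraries labelled replicate 1 edgeR called 2, Gabbr2 and Sv2c. It called 2 without replicate 4 of either group, and 4 without +MSC-4w replicate 2 or +PBS-4w replicate 3.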

How the results depend on the processing

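Glra3 and Gabrd, genes of few counts, were not called, and each change since day 7 rests on 3 sub-SCI libraries. Whether depth or group size kept genes from being called was not tested. The DEGs of +MSC-4w against sub-SCI numbered 1836 higher and 1097 lower as reported, and 1107 to 1818 and 775 to 1176 with 1 library left out, the 1107 without sub-SCI replicate 3. DESeq2 on all libraries gave 2027 and 1266 and edgeR on the 2 groups 1363 and 932. Deviations from the group mean correlated at 0.2, −0.109 and 0.0806 in the pairs of the 2 groups numbered 1, 2 and 3. Between sub-SCI replicate 3 and +MSC-4w replicate 2 the correlation was 0.287. These values cannot tell whether the numbers pair the samples, because deviations within a group are tied to each other. A replicate block gave 1880 and 1157. By over 1.5 times it moved the higher DEGs of central myelin from 1 to 2, of homeostatic microglia from 0 to 1 and of complement from 1 to 0, and the lower endothelial DEGs from 2 to 1. The alternatives that set aside the 8 libraries labelled replicate 1 were chosen after seeing the data. The day 35 difference was least stable. Its 89 higher DEGs became 295 (DESeq2, all libraries), 232 (DESeq2, 2 groups), 0 (edgeR, 2 groups) and 3 to 484 with 1 library left out (3 without +MSC-4w replicate 1 or +PBS-4w replicate 2, 484 without +PBS-4w replicate 1), and its 0 lower became 13, 14, 6 without the 8 libraries, and 0 to 46. Elapsed time gave 51 higher and 184 lower in edgeR on 2 groups, and 354 to 1007 and 361 to 593 with 1 library left out (725 lower without the 8). The genes lower than Intact numbered 460 and 514 (DESeq2), 427 (edgeR, 2 groups), 428 without the 8 libraries, and 127 to 424. In edgeR on the 2 groups 8 neuron markers were higher and 0 interferon-stimulated genes lower. DESeq2 in both forms and the fit without the 8 libraries each called 6 reactive astrocyte genes lower, the last with 1 higher. With 1 library left out neuron markers held 8 to 14 higher DEGs, and scar matrix 5 to 14, complement 2 to 6 and interferon-stimulated genes 0 to 4 lower DEGs. Medians ranged from 0.02794 to 0.5282 for central myelin, −0.6151 to −0.1441 for oligodendrocyte precursors (−0.1723 without sub-SCI replicate 1), −0.5074 to −0.199 for endothelial genes, −0.7476 to −0.05992 for angiogenesis (−0.6262 without +MSC-4w replicate 1), −0.00419 to 0.3683 for cholesterol synthesis and −0.2667 to 0.02081 for the injury response. The values −0.1441, −0.7476, 0.3683 and 0.02081 are those without the 8 libraries, where scar matrix held 15 lower DEGs. Slc4a1 and Ahsp, red cell genes that were not called, turned negative under the replicate block (−0.4043 and −0.6667) and without +MSC-4w replicate 4 (ranges of −0.09024 to 0.9339 and −0.5351 to 0.6421). The cause of these shifts was not tested.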
